A study of Mus musculus with 4 samples.

Results

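The G2/M genes described here are 42 genes whose products build the mitotic spindle, drive the entry into mitosis or carry out chromosome segregation and cell division. They were chosen by gene name on the array, and 60 of its 55681 probes carried one of these names. After dim probes were left out, 59 of the 60 probes remained, and all 42 genes were measured among 20227 genes in all. RNA came from neural stem/progenitor cells (NSPCs), cultured cells of the embryonic brain that divide in the presence of growth factors, of mouse embryos at embryonic day 13.5, either wild-type or Trp53-/-, which lack the gene of the tumor suppressor p53. The labels give the strain Slc:ICR for both genotypes. In each genotype, NSPCs treated with 20 µM PJ34, an inhibitor of poly(ADP-ribose) polymerases, were compared with untreated NSPCs of the same genotype. Each of the 4 arrays, 2 per genotype from independently prepared RNA, carried the PJ34 RNA in Cy5 and the control RNA in Cy3. Since the dyes were never swapped, a dye bias of a probe and the effect of PJ34 cannot be told apart within a genotype, whereas such a bias cancels in the difference between genotypes. The Trp53-/- cells came from a breeding line of *Trp53*-heterozygous mice, whose genetic background the methods do not state. The length of the PJ34 treatment for the arrays is not given in the sources used here.

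Cells enter mitosis when CDK1 bound to cyclin B is switched on by CDC25 phosphatases, and mitotic kinases, the spindle checkpoint and the anaphase-promoting complex (APC/C) then order the assembly of the spindle, the separation of chromosomes and the division of the cell. Transcripts of these genes peak together in G2 and M phase and are low in cells that have left the cycle, so they are widely read as a mark of dividing cells. Many of their promoters hold a CHR element (cell cycle genes homology region) and CCAAT boxes, which are read by the DREAM and MuvB complexes, B-Myb, FoxM1 and NF-Y, and activated p53 is known to lower many of these transcripts through the CDK inhibitor p21. In bulk RNA, fewer cells in G2 and M phase and less RNA per such cell cannot be told apart.

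The promoters show what the genes share that their choice by name did not use. Of the 42 genes, 36 had a promoter window in the RefSeq table of GRCm38.p6, which spans 250 bases before and 50 bases after the annotated start. A CHR element (TTTGAA, or TTCAAA on the other strand) was present in 26 of the 36 genes (72.2%), and in 20.2% of the 27025 genes of the table. A CCAAT box (CCAAT, or ATTGG on the other strand) was present in 28 of the 36 genes (77.8%) and in 41.1% of all genes. Both motifs stood in 63.9% of the G2/M genes and in 8.0% of all genes. Matches of the 2 motifs that share bases were counted for both, and a match is a description of the letters only.

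The stretches shown are the 110 bases before the start, 5′ to 3′ on the strand of the gene, with both motifs in capitals. They are those of the 8 genes with 1 window and a CHR element within this stretch, and that of *Ccnb1*, which had CCAAT boxes and no CHR element in its window.
Cdk1: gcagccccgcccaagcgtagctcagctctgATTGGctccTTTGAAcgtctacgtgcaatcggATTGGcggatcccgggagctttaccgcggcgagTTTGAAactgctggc
Cdc20: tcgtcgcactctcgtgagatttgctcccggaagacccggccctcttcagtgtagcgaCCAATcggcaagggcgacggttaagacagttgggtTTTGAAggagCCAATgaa
Ube2c: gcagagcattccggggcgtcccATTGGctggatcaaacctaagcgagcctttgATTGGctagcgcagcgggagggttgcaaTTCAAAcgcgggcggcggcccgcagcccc
Top2a: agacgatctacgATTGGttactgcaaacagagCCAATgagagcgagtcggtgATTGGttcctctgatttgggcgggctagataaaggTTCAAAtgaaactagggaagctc
Kif11: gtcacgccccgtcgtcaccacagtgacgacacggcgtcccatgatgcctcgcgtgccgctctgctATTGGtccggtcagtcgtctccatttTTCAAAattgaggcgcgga
Mki67: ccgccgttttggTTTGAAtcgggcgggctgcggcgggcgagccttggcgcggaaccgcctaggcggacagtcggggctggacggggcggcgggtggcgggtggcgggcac
Kif2c: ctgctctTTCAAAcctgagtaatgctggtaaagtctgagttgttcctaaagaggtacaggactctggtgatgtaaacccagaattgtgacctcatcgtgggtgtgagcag
Ckap2: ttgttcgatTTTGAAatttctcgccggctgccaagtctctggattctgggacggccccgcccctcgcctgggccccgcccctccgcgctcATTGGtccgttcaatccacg
Ccnb1: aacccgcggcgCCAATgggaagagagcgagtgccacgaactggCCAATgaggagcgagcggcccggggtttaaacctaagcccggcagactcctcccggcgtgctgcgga
These stretches lie at chr10:69352913-69353022 (minus strand, *Cdk1*), chr4:118437344-118437453 (minus strand, *Cdc20*), chr2:164769819-164769928 (plus strand, *Ube2c*), chr11:99024190-99024299 (minus strand, *Top2a*), chr19:37376272-37376381 (plus strand, *Kif11*), chr7:135716380-135716489 (minus strand, *Mki67*), chr4:117178773-117178882 (minus strand, *Kif2c*), chr8:22185820-22185929 (minus strand, *Ckap2*) and chr13:100786487-100786596 (minus strand, *Ccnb1*) of GRCm38.p6. In *Cdk1*, *Cdc20*, *Top2a*, *Ube2c* and *Kif11*, the CHR element nearest to the start began between 29 and 15 bases before it, with at least 1 CCAAT box further upstream. In *Ckap2*, *Kif2c* and *Mki67*, the CHR element began between 103 and 98 bases before the start.

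**Figure D1:**
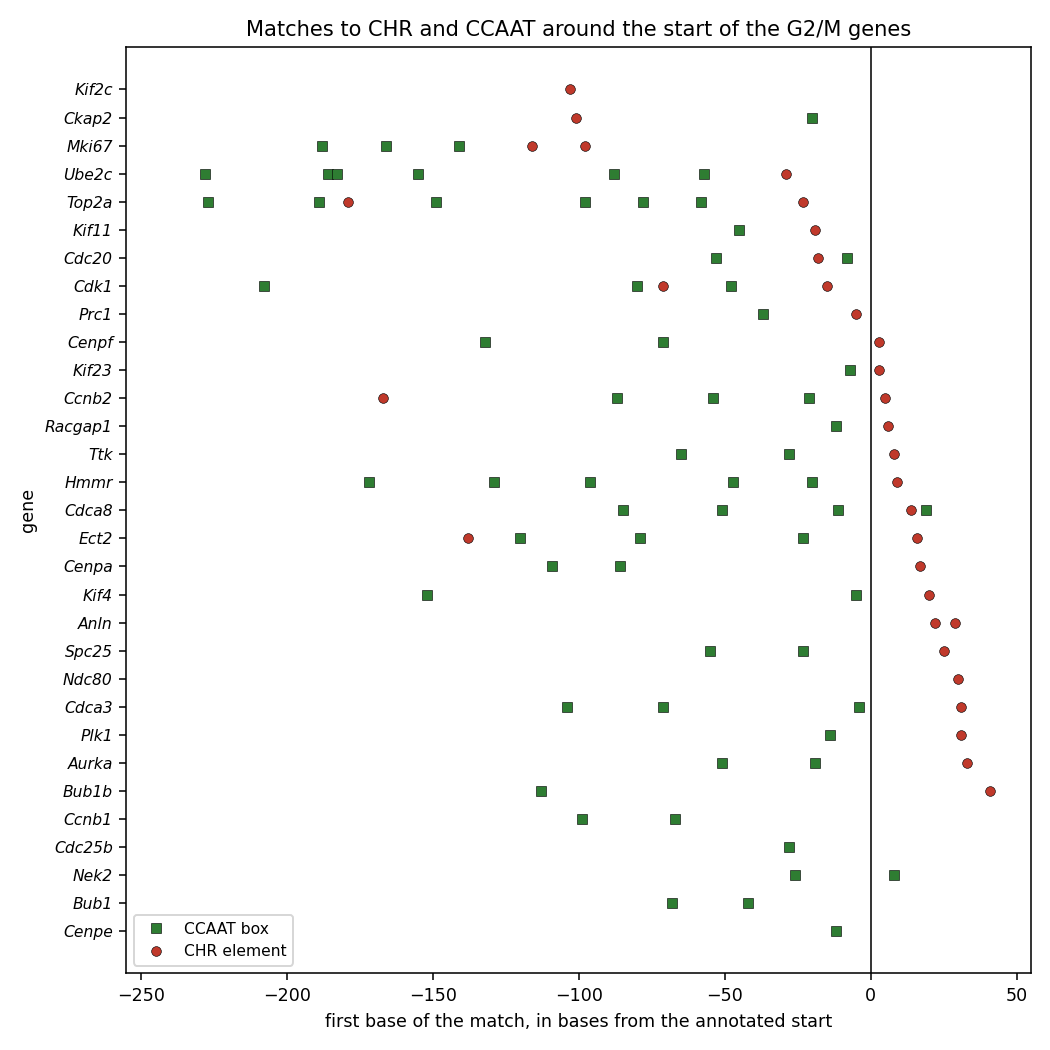
Position of the first base of each CHR element (red circles) and CCAAT box (green squares) in bases from the annotated start (vertical line), 1 row per gene with at least 1 match, in the first window by position where a gene had 2. Of the 36 genes with a window, 26 had a CHR element, in 23 of them within 50 bases on either side of the start.

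Depth and the check of the arrays come before the results. In the control channel, the number of probes clear of the background lay between 21503 and 24536, that in the PJ34 channel between 26075 and 27154, and no spot was saturated. Both colours of 40 of the 42 genes stood well above background on each of the 4 arrays, and the exceptions were *Aurkb* and *Cenpf*. The *Trp53* probe had log2 control levels of 8.28 and 8.51 in wild-type and of 7.56 and 7.82 in Trp53-/- NSPCs, a difference of -0.71 (*q* = 0.0519, limma). The part of the gene that is deleted is not given in the sources used here, so this probe may not report the deletion. The array of Trp53-/- replicate 2 stood apart: its log2 ratio of the Y-linked gene *Eif2s3y* was 4.22, against -0.20 to 0.84 on the other arrays, and that of the astrocyte gene *Gfap* was 1.62, against values between -0.28 and -0.00018. The counts or medians over the 42 genes and over the other lists are therefore given with and without this array. Of the calls for single genes of the 42 in Trp53-/- NSPCs given below, only that of *Cenpa* passed without it too. As to the labelled cell type, all 8 neural progenitor markers, among them *Nes* and *Sox2*, were well above background on every array.

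Most of the G2/M genes fell with PJ34 in wild-type NSPCs. Values are given as the log2 of PJ34 over control after background correction and loess normalization, so -1 is a 2-fold decrease, and *q* is Storey's *q* from limma over all genes tested. With *q* below 0.05, 38 of the 42 genes fell and none rose, whereas 11.2% of all genes fell and 13.5% rose. In limma, 38 of the 42 genes also had an unadjusted *p* below 0.05, as did 6427 of all 20227 genes. The median log2 ratio of the 42 genes was -0.67, with -0.52 on replicate 1 and -0.87 on replicate 2. The median of all genes was 0.03. On each of the 2 arrays, 41 of the 42 genes were lower with PJ34. Most decreases were below 2-fold: with the added limit of a 2-fold change, 3 genes were called, while 0.213% of all genes were called lower and 0.287% higher.

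This count depended on how the dyes were balanced. When each array was only centred on its median, the median of all kept genes moved to 0.46, the median of the G2/M genes was -0.07, and 6 of them fell and 3 rose, while 1.08% of all genes fell and 68.7% rose. Of the 38 genes that fell after loess, 11 had a positive mean with median centring, and 1 of these, *Incenp*, then passed as higher. Relative to the median of all genes, 40 of the 42 genes were lower with either normalization. Without wild-type replicate 2, on which 39 of the 42 genes were lower than on replicate 1, 26 genes passed.

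**Figure D2:**
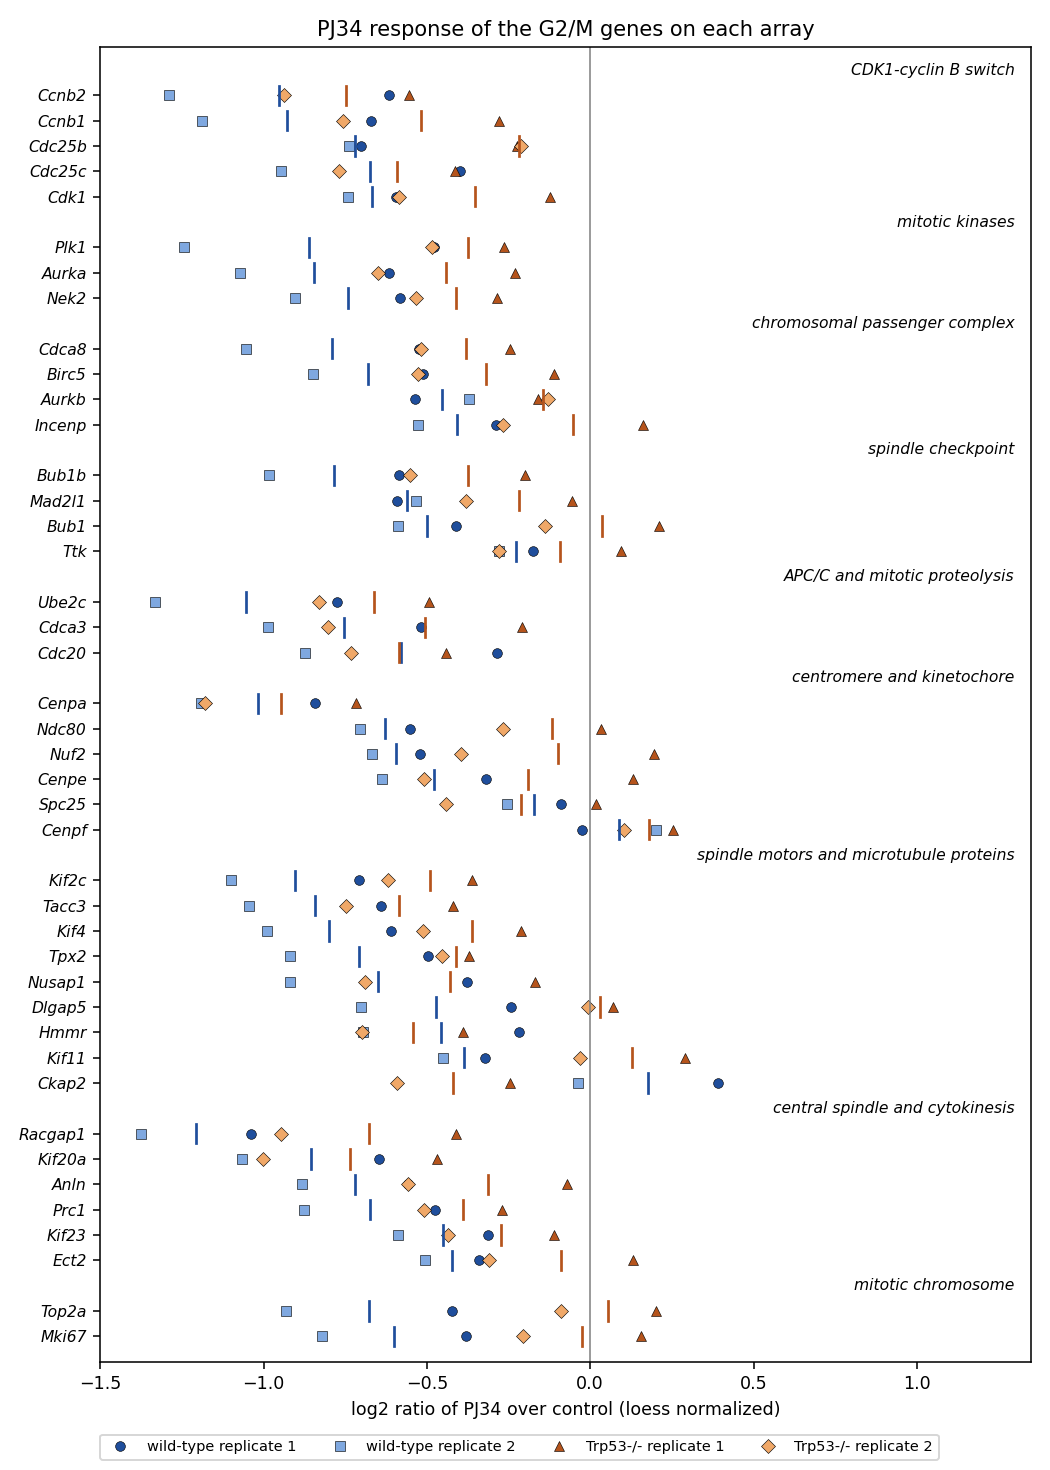
Log2 ratio of PJ34 over control (x axis) of each of the 42 genes on each of the 4 arrays (symbols), by role, with vertical bars for the mean of each genotype (n = 2 arrays). The genes had median log2 ratios of -0.52 and -0.87 on the wild-type arrays and of -0.20 and -0.52 on the Trp53-/- arrays after loess, and with median centring the median over both Trp53-/- arrays was positive, at 0.46.

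All 5 genes of the CDK1-cyclin B switch fell in wild-type NSPCs, with mean log2 ratios between -0.95 and -0.67. *Cdk1*, the kinase that starts mitosis, had log2 ratios of -0.59 and -0.74 on the wild-type arrays and of -0.12 and -0.58 in Trp53-/- NSPCs. Both wild-type values lay below both Trp53-/- values, if only just. The mean was -0.67 ± 0.10 (SD, n = 2) in wild-type (*q* = 0.00168) and -0.35 ± 0.33 in Trp53-/- NSPCs (*q* = 0.0318). The *Cdk1* probes differed: the dimmest of 3 gave a mean of 0.03 in wild-type, and with the mean of the probes *Cdk1* did not pass in Trp53-/- NSPCs (-0.14, *q* = 0.163). *Ccnb1*, the gene of cyclin B1, had -0.67 and -1.19 in wild-type and -0.28 and -0.76 in Trp53-/- NSPCs. The genotypes overlapped, and the means of -0.93 ± 0.37 (*q* = 0.000805) and -0.52 ± 0.34 (*q* = 0.0157) both passed. Its other 2 probes also passed in both genotypes. *Ccnb2*, of cyclin B2, was among the largest decreases in Trp53-/- NSPCs, with -0.55 and -0.94 there and -0.61 and -1.29 in wild-type. *Cdc25b* and *Cdc25c* encode phosphatases that activate CDK1. *Cdc25c* fell in both genotypes, by 0.67 and 0.59 on the log2 scale, and *Cdc25b* fell by 0.72 in wild-type, with -0.22 in Trp53-/- NSPCs, where it did not pass (*q* = 0.0601).

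The 3 mitotic kinase genes fell in wild-type NSPCs. *Plk1*, of Polo-like kinase 1, had log2 ratios of -0.48 and -1.25 on the wild-type arrays and of -0.26 and -0.48 in Trp53-/- NSPCs. The 2 wild-type arrays differed more from each other than the genotypes did, with means of -0.86 ± 0.54 (*q* = 0.00181) and -0.37 ± 0.16 (*q* = 0.0600). *Aurka*, needed at spindle poles, and *Nek2*, needed for the separation of centrosomes, fell in both genotypes, by 0.84 and 0.74 in wild-type and by 0.44 and 0.41 in Trp53-/- NSPCs.

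The chromosomal passenger complex corrects faulty attachments of chromosomes to the spindle. After loess, all 4 of its genes fell in wild-type NSPCs, and 1 of them, *Cdca8* (borealin), fell in Trp53-/- NSPCs, by 0.38. *Incenp*, the scaffold of the complex, turned direction with the normalization in wild-type NSPCs, from -0.41 (*q* = 0.0181) after loess to 0.28 (*q* = 0.0470) with median centring. *Aurkb*, its kinase, had log2 ratios of -0.54 and -0.37 on the wild-type arrays and of -0.16 and -0.13 in Trp53-/- NSPCs, and the genotypes did not overlap. The wild-type mean of -0.45 ± 0.12 passed (*q* = 0.00384). This probe was dim, and its control channel was well above background only on wild-type replicate 1, so the Trp53-/- ratios are those of signals near background. *Birc5* (survivin) had a mean of -0.32 in Trp53-/- NSPCs (*q* = 0.0506), and *Incenp* had -0.05.

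Of the 4 spindle checkpoint genes, which hold anaphase until all chromosomes are attached, *Bub1b*, *Mad2l1* and *Bub1* fell in wild-type NSPCs, by 0.78, 0.56 and 0.50. The kinase gene *Ttk* had -0.23 and did not pass (*q* = 0.0881). In Trp53-/- NSPCs, *Bub1b* fell by 0.38, and the others lay between -0.22 and 0.04. The 3 genes around the APC/C, the ubiquitin ligase that ends mitosis, fell in both genotypes. *Ube2c*, its ubiquitin-conjugating enzyme, had log2 ratios of -0.78 and -1.33 on the wild-type arrays and of -0.49 and -0.83 in Trp53-/- NSPCs, with means of -1.05 ± 0.40 (*q* = 0.000357) and -0.66 ± 0.24 (*q* = 0.00461). *Cdc20*, its activator, was as low in Trp53-/- (-0.59) as in wild-type NSPCs (-0.58), and the 95% confidence interval of the difference ran from -0.41 to 0.43.

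Among the 6 centromere and kinetochore genes, 4 fell in wild-type NSPCs and 1 in Trp53-/- NSPCs. *Cenpa*, the histone variant that marks the centromere, had log2 ratios of -0.84 and -1.19 on the wild-type arrays and of -0.72 and -1.18 in Trp53-/- NSPCs. The 2 genotypes overlapped almost wholly. The means were -1.02 ± 0.25 (*q* = 0.000325) and -0.95 ± 0.33 (*q* = 0.000704), the latter the largest decrease of the 42 genes in Trp53-/- NSPCs, and the 95% confidence interval of the difference ran from -0.46 to 0.32. *Ndc80* and *Nuf2*, subunits of the complex that holds microtubules, fell by 0.63 and 0.59 in wild-type and had -0.12 and -0.10 in Trp53-/- NSPCs. *Spc25*, another subunit, had -0.17 and -0.21 and passed in neither genotype. *Cenpf* was dim and had 0.09 in wild-type and 0.18 in Trp53-/- NSPCs.

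Of the 9 spindle motors and microtubule proteins, 8 fell in wild-type and 7 in Trp53-/- NSPCs. *Kif2c*, a kinesin that takes microtubules apart, *Tacc3* and the chromosome-bound kinesin *Kif4* fell most in wild-type NSPCs, by 0.90, 0.84 and 0.80. *Kif11*, the motor that pushes spindle poles apart, fell by 0.39 in wild-type and had 0.13 in Trp53-/- NSPCs, and *Dlgap5* had -0.47 and 0.03. *Hmmr* fell by 0.46 and 0.54. *Ckap2*, a microtubule-associated protein, went against the rest: its log2 ratios were 0.39 and -0.04 in wild-type and -0.25 and -0.59 in Trp53-/- NSPCs. It was the only one of the 42 genes that passed in Trp53-/- (-0.42 ± 0.24, *q* = 0.0211) and not in wild-type NSPCs (0.18 ± 0.30, *q* = 0.181).

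All 6 genes of the central spindle and cytokinesis fell in wild-type NSPCs. *Racgap1*, which with *Kif23* forms the centralspindlin complex, had the largest decrease of the 42 genes, with log2 ratios of -1.04 and -1.38 on the wild-type arrays and of -0.41 and -0.95 in Trp53-/- NSPCs. Both wild-type values lay below both Trp53-/- values, and the means were -1.21 ± 0.24, a 2.31-fold decrease (*q* = 0.000194), and -0.68 ± 0.38 (*q* = 0.00380). Its second probe gave means of -1.05 and -0.61. *Kif20a*, a kinesin of the midzone, had -0.65 and -1.07 in wild-type and -0.47 and -1.003 in Trp53-/- NSPCs, and both means passed (-0.86 ± 0.30, *q* = 0.00111, and -0.74 ± 0.38, *q* = 0.00317). *Prc1*, which bundles microtubules, fell by 0.68 and 0.39. *Anln*, *Kif23* and *Ect2*, which act at the contractile ring, did not pass in Trp53-/- NSPCs, with -0.31, -0.27 and -0.09.

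The 2 genes of the mitotic chromosome had the largest median difference between genotypes of all the roles, at -0.65. *Top2a*, the topoisomerase that untangles sister chromatids, had log2 ratios of -0.42 and -0.93 on the wild-type arrays and of 0.20 and -0.09 in Trp53-/- NSPCs. *Mki67*, the proliferation marker Ki-67, had -0.38 and -0.82 in wild-type and 0.16 and -0.21 in Trp53-/- NSPCs. Neither gene overlapped between genotypes. Both fell in wild-type NSPCs (-0.68 ± 0.36, *q* = 0.00252, and -0.60 ± 0.31, *q* = 0.00438), and neither passed in Trp53-/- NSPCs (0.05 ± 0.21, *q* = 0.397, and -0.03 ± 0.26, *q* = 0.450).

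In Trp53-/- NSPCs as a whole, 22 of the 42 genes fell and none rose with *q* below 0.05, whereas 10.4% of all genes fell and 12.7% rose, and none reached a 2-fold decrease, while 0.272% of all genes were called lower and 0.089% higher. Of these 22 genes, 21 had also fallen in wild-type NSPCs. On all 4 arrays, 28 of the 42 genes were lower, but the share of all genes that were is not given here, so this count has no baseline. The median log2 ratio was -0.37 after loess, against 0.03 for all genes, and 0.46 with median centring, against 0.63 for all genes. With median centring, 20 of the 22 genes that had fallen turned positive. Then 1 gene fell and 35 rose, while 1.23% of all genes fell and 75.5% rose, and 30 of the 42 genes stayed below the median of all genes. The count rested on replicate 2, the array that stood apart: on replicate 1 the median was -0.20 with 29 genes lower, and on replicate 2 it was -0.52 with 41 lower. Without replicate 2, 1 gene (*Cenpa*) passed, while 3.88% of all genes fell, and without replicate 1, 27 genes did. On replicate 2 the log2 level of the Y-linked gene *Eif2s3y* was 6.24 in the control channel and 10.46 in the PJ34 channel. For the Y-linked gene *Ddx3y* the levels were 6.17 and 9.29. The effect of PJ34 and the sex of the embryos therefore cannot be told apart on this array. The part of the difference in *Eif2s3y* and *Gfap* on replicate 2 in this result was not tested.

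The response was smaller in Trp53-/- than in wild-type NSPCs for most of the genes, but for no single gene did the difference pass. The mean log2 ratio was lower in wild-type for 38 of the 42 genes, with a median difference of -0.34 (all genes, -0.01), and it passed *q* below 0.05 for 0 genes, while 0.475% of all genes passed as lower in wild-type and 1.3% as higher. With the limit of a 2-fold difference, too, 0 of the 42 genes were called, against 0.0396% of all genes lower and 0.44% higher. At an unadjusted *p* below 0.05 in limma, 18 of the 42 genes differed, as did 2904 of all 20227 genes. For 20 genes, both wild-type arrays lay below both Trp53-/- arrays, as they did for 23.9% of all genes. The largest difference was that of *Top2a*, at -0.73 (95% confidence interval -1.13 to -0.34, *q* = 0.0613), followed by *Ckap2* with 0.60 (0.21 to 0.98, *q* = 0.101) and *Mki67* with -0.58 (-0.97 to -0.18, *q* = 0.116). With 1 array left out, a genotype had 1 array, and the genes whose difference passed changed with the array left out. Without Trp53-/- replicate 2, the median difference of the 42 genes was -0.54, against 0.002 for all genes. Across the 42 genes, which are not independent replicates, the mean responses of the genotypes had a Pearson correlation of 0.64, and those of the 2 arrays of a genotype 0.79 in wild-type and 0.85 in Trp53-/- NSPCs.

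**Figure D3:**
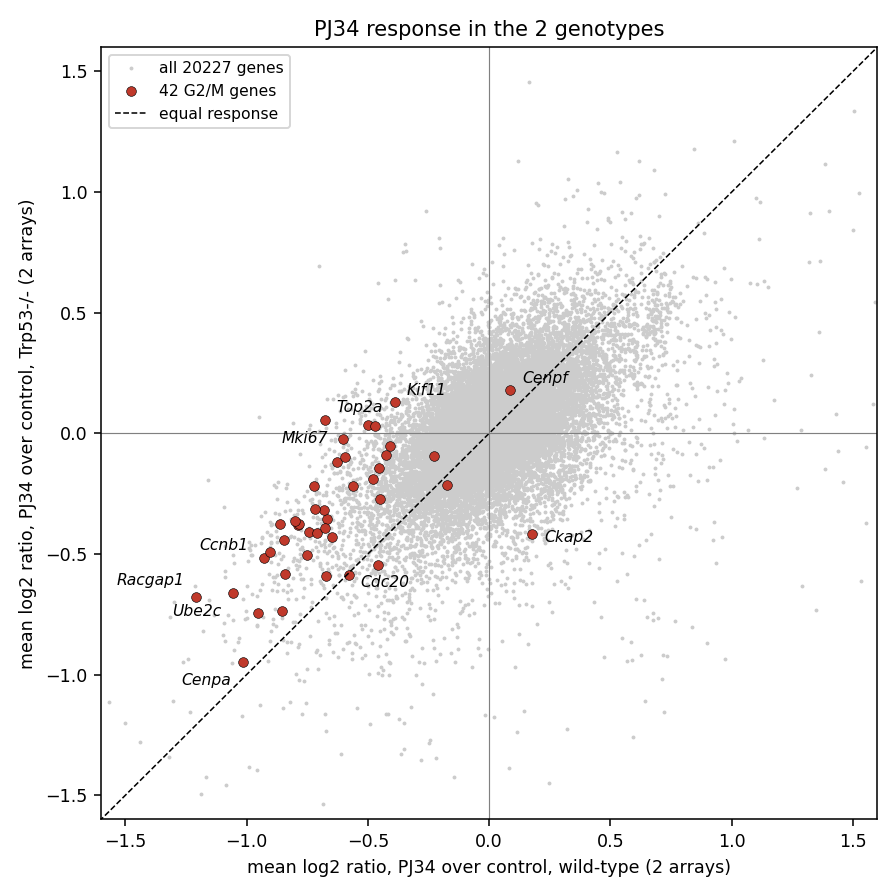
Mean log2 ratio of PJ34 over control in wild-type (x axis) and in Trp53-/- NSPCs (y axis), 2 arrays each, of the 42 G2/M genes (red) and all genes (grey, of which 24 lie outside the axes), with the line of equal response. Of the 42 genes, 38 lie above the line, *Cenpa* and *Cdc20* lie near it, *Top2a* and *Mki67* lie near a ratio of 0 in Trp53-/- NSPCs, and *Ckap2* lies below it. With median centring the Trp53-/- values of most genes turn positive.

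The responses are given apart for the G2/M genes with and without a CHR element. The 26 genes with one had a median log2 ratio of -0.68 in wild-type and -0.37 in Trp53-/- NSPCs, and the 10 genes without one had -0.665 and -0.27. In wild-type NSPCs, 22 of the 26 and all 10 of the 10 fell, against 11.2% of all genes. In Trp53-/- NSPCs, 15 of the 26 and 4 of the 10 fell with both arrays, against 10.4% of all genes. Without Trp53-/- replicate 2, the array that stood apart, the median of all G2/M genes there was -0.20, against -0.37 with both arrays. With median centring it was 0.46, against 0.63 for all genes. These medians were not split by CHR element, so the counts of the groups hold for both arrays after loess only. No difference between the groups was tested.

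Other genes of the same pathway were read from fixed lists. Of 48 other mitotic genes with a kept probe, 35 fell and 3 rose in wild-type NSPCs, and 14 fell and 1 rose in Trp53-/- NSPCs. Over all genes, 11.2% fell and 13.5% rose in wild-type, and 10.4% fell and 12.7% rose in Trp53-/- NSPCs. Without Trp53-/- replicate 2, the median log2 ratio of the 48 genes in Trp53-/- NSPCs was -0.04, against 0.03 for all genes. With median centring, 4 of the 48 fell and 12 rose in wild-type, and none fell and 40 rose in Trp53-/- NSPCs. Over all genes, 1.08% then fell and 68.7% rose in wild-type, and 1.23% fell and 75.5% rose in Trp53-/- NSPCs. The medians of the 48 genes after loess were -0.46 and -0.16, smaller than those of the 42 genes. *Ska1*, of a complex that couples kinetochores to microtubules, fell most in wild-type, with log2 ratios of -1.12 and -1.05, and had -0.40 and -0.79 in Trp53-/- NSPCs. *Kifc1*, a spindle kinesin, had -0.43 and -0.81 in Trp53-/- NSPCs, where it passed with both arrays and not without replicate 2, and -0.08 and 0.44 in wild-type. *Psrc1*, a microtubule regulator known as a p53 target, rose in wild-type (0.84 and 0.69) and fell in Trp53-/- NSPCs (-0.57 and -0.98), and the difference of 1.54 passed (*q* = 0.00122), as it did without Trp53-/- replicate 2 (1.34, *q* = 0.000284) and with median centring (1.65, *q* = 0.00398).

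Of 14 genes for the transcription of G2/M genes, 4 fell and 2 rose in wild-type NSPCs, where 11.2% of all genes fell and 13.5% rose. In Trp53-/- NSPCs, 1 of the 14 fell and 1 rose. The counts in Trp53-/- NSPCs are near the shares of all genes, 10.4% and 12.7%, and they were the same without replicate 2. Of 9 genes that brake the entry into mitosis, 3 fell and 3 rose in wild-type NSPCs, and 1 fell in Trp53-/- NSPCs, with and without replicate 2. With median centring none of either list fell, 10 of the 14 and 5 of the 9 rose in wild-type, and 14 and 4 rose in Trp53-/- NSPCs. Over all genes, 68.7% rose in wild-type and 75.5% in Trp53-/- NSPCs with median centring. *Cdkn1a*, the gene of p21, rose to log2 ratios of 1.84 and 1.23 in wild-type and had -0.48 and -0.74 in Trp53-/- NSPCs, where the mean of -0.61 passed (*q* = 0.00697) and was 0.06 with median centring. The difference of 2.14 passed (*q* = 0.000537), as it did without Trp53-/- replicate 2 (2.02, *q* = 1.53e-05) and with median centring (2.15, *q* = 9.6e-05).

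Most genes of the G1/S transition, which are needed for DNA replication, fell in wild-type NSPCs after loess. Of 17 with a kept probe, 15 fell in wild-type NSPCs (11.2% of all genes), and none fell and 3 rose in Trp53-/- NSPCs (10.4% and 12.7%). The difference passed for 7, all lower in wild-type, against 0.475% of all genes. Without Trp53-/- replicate 2, 14 fell in wild-type, 1 rose in Trp53-/- NSPCs and the difference passed for 4. With median centring, none of the 17 fell in either genotype, and 8 rose in wild-type and all 17 in Trp53-/- NSPCs. Over all genes, 68.7% then rose in wild-type and 75.5% in Trp53-/- NSPCs. The difference with median centring passed for none of the 17, while 0.00989% of all genes passed as lower and 0.183% as higher in wild-type. The medians of the 17 genes after loess were -0.43 and 0.10. *Uhrf1*, which maintains DNA methylation, had -0.78 and -0.96 in wild-type and -0.18 and -0.23 in Trp53-/- NSPCs. *Mcm3*, of the replicative helicase, had -0.22 and -0.45 in wild-type and 0.43 and 0.36 in Trp53-/- NSPCs, and *Chaf1b*, of a histone chaperone, had -0.46 and -0.78 against 0.10 and 0.09. *Tyms*, for thymidylate synthesis, rose in Trp53-/- NSPCs (0.56 on both arrays). Whether the 2 lists differ from each other was not tested.

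**Figure D4:**
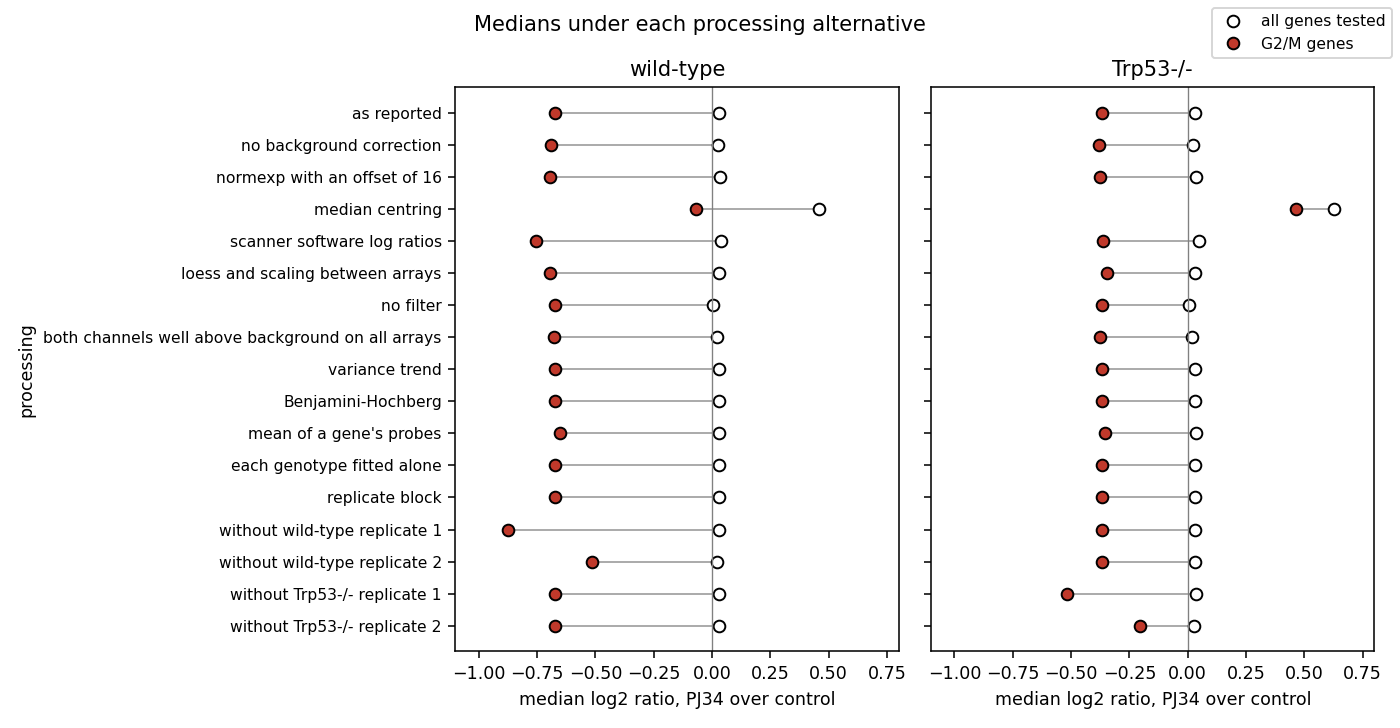
Median log2 ratio of PJ34 over control of the G2/M genes (red) and of all genes tested (white) in wild-type and Trp53-/- NSPCs under each processing alternative (rows; 40 of the 42 genes are left where both channels had to be well above background). The red median lies left of the white one in every row, at -0.67 against 0.03 in wild-type and -0.37 against 0.03 in Trp53-/- NSPCs as reported, and it turns positive in Trp53-/- NSPCs with median centring, at 0.46 against 0.63.

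In untreated NSPCs, few of the G2/M genes passed the test of a difference between genotypes. The levels are log2 intensities of the control channel, set across arrays, and are not comparable between genes. With *q* below 0.05, 2 of the 42 genes were lower in Trp53-/- NSPCs and none was higher. Over all genes, 4.15% were lower and 4.17% higher. At an unadjusted *p* below 0.05 in limma, 6 of the 42 genes differed, as did 4798 of all 20227 genes. The median difference, Trp53-/- minus wild-type, was -0.25 (all genes, -0.0037), with 34 genes lower and 8 higher. Both Trp53-/- arrays lay below both wild-type arrays for 17 genes and above them for 3, as they did for 29% and 27.2% of all genes. Each genotype was hybridized on its own slides at its own time, so slide, scan and genotype cannot be told apart here.

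*Ckap2* differed most. Its levels were 11.37 and 11.06 in wild-type and 9.80 and 9.72 in Trp53-/- NSPCs, so the groups were far apart, and the difference of -1.46 was a 2.75-fold lower level (*q* = 0.0140), the only one of the 42 that passed the limit of a 2-fold change (2.03% of all genes were called lower and 1.94% higher). *Mad2l1* had 12.41 and 12.16 in wild-type and 11.60 and 11.61 in Trp53-/- NSPCs, a difference of -0.68 (*q* = 0.0491). *Aurkb* had 8.37 and 6.66 in wild-type and 6.50 and 6.13 in Trp53-/- NSPCs, and it was well above background only on wild-type replicate 1, so no fold is given. The difference did not pass (*q* = 0.131). For *Cdk1* the levels were 12.48 and 11.76 in wild-type and 11.56 and 11.40 in Trp53-/- NSPCs. *Mki67* had 13.60 and 12.64 against 12.85 and 12.75, *Top2a* 11.56 and 11.13 against 11.24 and 10.97, *Plk1* 13.61 and 13.13 against 13.54 and 13.16, and *Ccnb1* 13.09 and 13.12 against 13.12 and 12.85. In these 4 genes the genotypes overlapped.

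These counts turned on single arrays. Both the genes that passed and their direction changed with the array left out, and a genotype then had 1 array. Without Trp53-/- replicate 2, the median difference of the 42 genes was -0.16, against -0.01 for all genes. The cells also differed in other markers. The control levels of the Y-linked gene *Eif2s3y* were 8.96 and 8.47 in wild-type and 6.01 and 6.24 in Trp53-/- NSPCs (difference -2.59, *q* = 0.00806), and those of *Ddx3y* were 8.25 and 8.06 against 6.04 and 6.17 (-2.05, *q* = 0.00803). The sex of the embryos and the genotype therefore cannot be told apart in the levels, and neither can they in the difference between the responses. With *q* below 0.05, 2 of 4 oligodendrocyte markers and 3 of 4 astrocyte markers were higher in untreated Trp53-/- NSPCs and none was lower. By sign alone, 1 oligodendrocyte marker (-0.41) and 1 astrocyte marker (-0.58) were lower. The log2 of the summed level of the oligodendrocyte markers was 12.58 and 12.64, against 10.04 and 10.43 in wild-type. For the astrocyte markers it was 11.36 and 11.41, against 10.34 and 11.51, and *Gfap* was not well above background on every array. For the neuron markers it was 12.17 and 12.34, against 12.75 and 12.09. Of the 6 neuron markers, 5 were higher in untreated Trp53-/- NSPCs (median difference 0.63), and 2 passed as higher and none as lower. Over all genes, 4.17% passed as higher and 4.15% as lower. For the 2 of 4 microglia markers with a kept probe, the log2 of the summed level was 12.05 and 11.83, against 12.52 and 12.77. *Pecam1*, the single endothelium marker with a kept probe, was not well above background in the control channel of any array. The part of these markers in the levels of the G2/M genes was not tested. Among the other genes of the pathway, *Cdkn1a* and *Psrc1* were lower in untreated Trp53-/- NSPCs, by differences of -2.70 and -2.04, and *Zwint*, a kinetochore gene, was higher by 0.76 (*q* = 0.0423). None of the 3 passed without Trp53-/- replicate 2, and neither did any other gene tested.

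**Figure D5:**
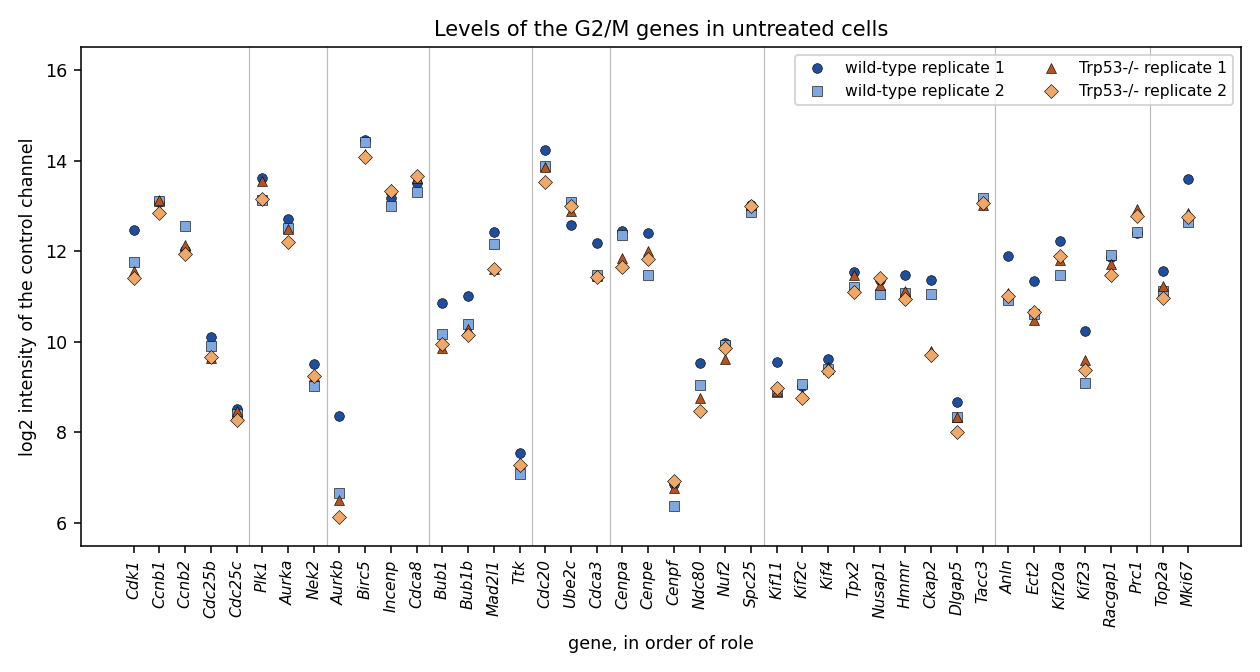
Log2 intensity of the control channel (y axis) of each of the 42 genes (x axis, in order of role, roles parted by grey lines) on the 4 arrays (symbols). *Ckap2* is the gene whose 2 Trp53-/- arrays, at 9.80 and 9.72, lie farthest below both wild-type arrays, at 11.37 and 11.06, and for *Aurkb* only wild-type replicate 1, at 8.37, stands high.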

How the data were processed

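The authors scanned 4 two-colour arrays (Agilent SurePrint G3 Mouse GE) and extracted the spots with Agilent Feature Extraction 10.7.3.1, as the submitters' processing notes name it. The intensity values deposited per spot, mean signal and median local background in each colour, were used without further correction by the authors. The deposited log10 ratios of that software, which subtracts background and balances the dyes, served only as an alternative. A table with 4 numbered columns of values was not used, since their names fit no array's labels.

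Here normexp (limma 3.58.1, R 4.3.3, offset 50) served for background correction and loess for normalization within arrays. Control and outlier spots (228 to 276 per array) were left out, and spots of a probe were averaged. Probes with at least 1 channel well above background on both arrays of a genotype were kept (27035 probes, 48.6%), and the brightest kept probe stood for its gene. The control levels were set across arrays by quantile normalization of mean intensities. The limma model had a mean per genotype and used all 4 arrays (10.5 degrees of freedom after moderation), and Storey's *q* was taken over all 20227 genes. A gene passed at *q* below 0.05 and was called with a change above 2-fold as well. The fit was tested on simulated data. Probe positions, in mm9, are not printed, and 26300 probes took their symbol through RefSeq accessions. The number of arrays limits the precision.

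The members and lists were chosen with earlier results of these data known. The genes given with every array were *Cdk1*, *Ccnb1*, *Plk1*, *Aurkb*, *Mki67*, *Top2a* and, per comparison, the 3 members with the largest change, and of the other lists the 2 largest passing changes in each direction. Alternatives were other background, normalization, filter, variance, adjustment and probe choices, the replicate number as a block, each genotype alone, and leaving out each array.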

Additional observations from a re-analysis of the deposited data

Results flagged for a closer look

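None of the 42 G2/M genes differed between genotypes in its response to PJ34 at *q* below 0.05, but 5 named genes of the other lists did. The difference, wild-type minus Trp53-/- in log2 ratio, was 2.14 for *Cdkn1a* and 1.54 for *Psrc1*, and for both genes the wild-type arrays lay above the Trp53-/- arrays. It was -0.73 for *Mcm3*, -0.71 for *Chaf1b* and -0.67 for *Uhrf1*, and for these 3 genes the wild-type arrays lay below the Trp53-/- arrays. The test was limma's contrast between genotypes with Storey's *q* over all genes.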

How the results depend on the processing

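In wild-type NSPCs, the number of the 42 genes that fell (38 as reported) was 6 with median centring, 7 with the log ratios of the scanner software, and 26 to 38 with 1 array left out, and the median was -0.067 with median centring. In Trp53-/- NSPCs, the number (22 as reported) was 14 with an offset of 16, 1 with median centring, 0 with the log ratios of the scanner software, and 1 to 27 with 1 array left out, and the median was 0.46 with median centring. Under median centring the log2 ratio turned positive for 11 of the 38 genes in wild-type and 20 of the 22 in Trp53-/- NSPCs. Among them were *Incenp* (0.28) and *Mki67* (0.079) in wild-type and *Cdk1* (0.52), *Ccnb1* (0.44), *Ccnb2* (0.15) and *Kif20a* (0.15) in Trp53-/- NSPCs. *Plk1* (0.61) and *Mki67* (0.93), which had not passed in Trp53-/- NSPCs, were also positive there. With the log ratios of the scanner software, 0 of the 38 and 0 of the 22 genes turned positive. The cause of the turn with median centring was not tested. The number of genes whose response differed between genotypes (0 as reported) was 1 with no filter and 1 with a variance trend, and it changed with 1 array left out. The number whose untreated level differed (2 as reported) was 1 without background correction, with an offset of 16, with the control channel quantile normalized alone, with the strict filter on dim probes, with a variance trend, with Benjamini-Hochberg adjustment and with the mean of a gene's probes, 0 with the software's processed signal, and 0 to 25 with 1 array left out.

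Over 20227 genes, the deviations of same-numbered arrays were little correlated between genotypes (-0.18 for log2 ratios and 0.08 for control levels). Of the 42 G2/M genes, however, 39 in wild-type and 40 in Trp53-/- NSPCs had a lower log2 ratio on replicate 2 than on replicate 1. Whether the replicate numbers pair the arrays cannot be told from these values. With the replicate number as a block, 2 genes differed in response and 5 in untreated level, and the counts for PJ34 in each genotype stayed within 1.5 times. A crossed pairing, chosen after seeing the data, gave 38 and 27 genes that fell, 6 that differed in response and 1 in untreated level. With 2 arrays per genotype, a difference in a single gene was measured only coarsely, and 2 of the 42 genes were not well above background on every array.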

Other observations

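Second probes gave a check within the arrays. Of the 42 G2/M genes, 13 had more than 1 kept probe, and of the 17 further probes 16 were lower with PJ34 in wild-type NSPCs, 14 of them with *q* below 0.05, and 16 were lower in Trp53-/- NSPCs, 7 of them with *q* below 0.05. The second probe of *Tpx2*, a spindle assembly factor, had a mean log2 ratio of -0.10 in wild-type and -0.29 in Trp53-/- NSPCs, against -0.71 and -0.41 for the brighter probe. The second probe of *Dlgap5*, which stabilizes spindle microtubules, had -0.24 in wild-type, against -0.47. The log2 ratios of most genes were lower on replicate 2 than on replicate 1, for 39 of the 42 genes in wild-type and 40 in Trp53-/- NSPCs.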
